A study of Mus musculus with 8 samples.

Results

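The nuclear genes that encode subunits of the mitochondrial respiratory chain and of ATP synthase are described here in mouse gastrocnemius, the large calf muscle, at 4 ages. Members were the protein-coding genes of the GRCm38 annotation whose symbol begins with Nduf and one of the letters a, b, c, s or v, with Uqcr, with Cox and a digit from 4 to 8, or with Atp5, together with Sdha, Sdhb, Sdhc and Sdhd. That rule found 84 of the 49315 genes in the count files, on 19 chromosomes. By symbol, 37 belonged to complex I, 4 to complex II, 8 to complex III, 18 to complex IV and 17 to complex V. Of the 84, 82 passed the filter on low counts and were tested. Cox7b2 and Cox8c, isoform genes known from testis, did not pass, and their counts were at or near 0 in all 8 libraries. Ndufa4, grouped with complex I by its symbol, is placed in complex IV by structural work, and Atp5s is an ATP synthase coupling factor rather than a structural subunit.

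Complex I takes electrons from NADH and complex II takes them from succinate, and both pass them to ubiquinone. Complex III moves them on to cytochrome c, and complex IV hands them to oxygen. Complexes I, III and IV pump protons across the inner mitochondrial membrane, and complex V, the ATP synthase, lets them flow back while it makes ATP. Each complex except complex II mixes nuclear subunits with a few that are encoded in the mitochondrial genome. Several complex IV subunits exist as a widespread form and a form typical of heart and skeletal muscle. Slow fibres hold more mitochondria than many, though not all, fast fibres, and mouse gastrocnemius is made mostly of fast fibres.

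Muscle was taken from C57BL/6 mice of 3, 12, 24 or 30 months, with no treatment or altered gene in the labels, and total RNA was sequenced in 2 libraries per age. Whether both libraries of an age are different animals is not stated in the labels. The p-values here therefore rest on a spread between libraries that may be technical. Counts of the 2 libraries of each age differed by more than sampling noise (chi-square per degree of freedom 44.1 to 109). Library totals were 42404254 to 59245029 counts, and the 3 counts that a count of 0 allows correspond to 0.0506 to 0.0707 counts relative to library size (CPM), for counting error alone. Skeletal muscle markers such as Acta1 and Ckm summed to 75480 to 161300 CPM, so the labelled tissue matched its markers.

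Libraries also differed in their circadian clock genes, and this difference cuts across the ages. A clock score was taken as the mean log2 CPM of Dbp, Nr1d1, Nr1d2, Per3 and Tef minus that of Arntl, Npas2 and Clock, the first 5 being genes that peak when the other 3 are low. In the order of replicates 1 and 2 it was 0.47 and 0.65 for 3 months, 1.14 and 4.08 for 12, 1.87 and 3.80 for 24, then 3.59 and 1.40 for 30 months. The widest gap in the score parted 3 libraries of high score (replicate 2 of 12 and of 24 months, replicate 1 of 30 months) from 5 of low score. These are samples parted by their values, not groups of the study. Nr1d1 did not follow the score at 12 and 24 months. It was at 24.1 CPM in the high-score and 41.4 CPM in the low-score library of 12 months. At 24 months it was at 32.4 against 61.0 CPM, and at 30 months at 61.1 against 45.7 CPM. Both 3 month libraries had a low score, so a comparison with 3 months sets 2 low libraries against 1 high and 1 low library.

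Levels per length are given as FPKM, the TMM-scaled CPM per kilobase of the exon length in the count files. The 84 genes together accounted for 1.85% to 2.61% of all counts per library. Their summed level was 15403 and 14843 FPKM in the 3 month libraries, 17285 and 13613 in those of 12, 14015 and 14098 in those of 24 and 13506 and 15796 in those of 30 months. The 2 libraries of 12 months thus enclosed those of all other ages except replicate 1 of 30 months. In RNA of whole muscle, fewer cells of a type and less RNA per cell cannot be told apart.

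Complex I genes summed to 4320 to 5376 FPKM, complex II genes to 383.5 to 536, complex III genes to 1627 to 2170, complex IV genes to 4140 to 5472 and complex V genes to 2954 to 3742. For complexes I, III, IV and V the highest sum was in replicate 1 of 12 months, and for complex II in replicate 2 of 30 months. By age, the mean sum of complex I was 4883 ± 77.2, 4901 ± 671, 4419 ± 62.3 and 4574 ± 359 FPKM for 3, 12, 24 and 30 months (SD, n = 2). Means of complex IV were 4503 ± 146, 4834 ± 903, 4349 ± 123 and 4554 ± 585 FPKM in the same order. The order of these means is within the spread at 12 and 30 months, where the SD exceeded most differences between ages.

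**Figure D1:**
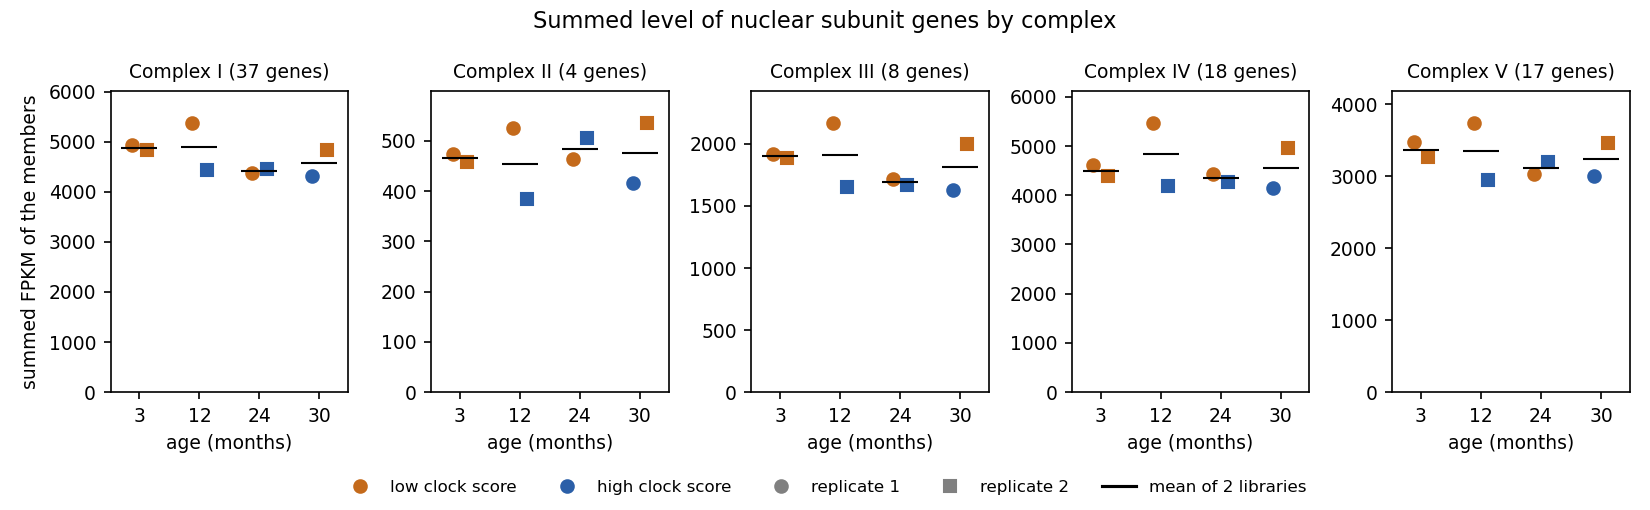
Summed level (FPKM, from 0) of the member genes of each complex against age in months, 1 panel a complex, with circles for replicate 1, squares for replicate 2, colour for the clock score and a bar for the mean of 2 libraries. At 12 and 30 months the library of high score is the lower one in all 5 complexes, and at 24 months the 2 libraries lie close, with complex V at 3025 and 3201 FPKM.

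The 3 most abundant members per length were subunits of complexes IV and V. Cox8b, the muscle form of the small subunit COX8, had a mean of 1237 FPKM over the 8 libraries, and Cox6a2, the muscle form of COX6A, had 932 FPKM. In complex V, Atp5a1 and Atp5b, which encode the alpha and beta subunits of the catalytic head, stood at 625 (rank 3) and 486 FPKM (rank 5). Ndufb9 (520.2 FPKM, rank 4) and Ndufa6 (297) led complex I, Uqcr10 (467) and Uqcr11 (342) led complex III, and Sdhb (151), the iron-sulfur subunit, and Sdha (132), the flavoprotein, led complex II. These ranks depend on the length used. For 31 of the 84 genes the deposited length, which joins the exons of all transcripts, was over 2 times that of the principal transcript, up to 12.4 times for Ndufb2. With principal transcript lengths Atp5b moved from rank 5 to rank 2 and Atp5e from rank 23 to rank 4, and the ranks of the 84 genes under both lengths had a Spearman rho of 0.728. Comparisons of 1 gene between libraries do not use the length.

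For members above a mean log2 CPM of 4 (78 genes), the highest of the 8 libraries was a median of 1.39 times the lowest, from 1.19 times for Ndufs3 to 2.60 times for Atp5e. Over all 5690 genes above that level the median was 1.43 times. By this measure the members varied about as much as other genes of such a level.

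Muscle isoforms made up most of the transcripts of 3 complex IV subunits in every library. Cox6a2 (ENSMUSG00000030785, chromosome 7, 128205435 to 128206387, GRCm38) was at 771 and 881 FPKM in the 3 month libraries, 1117 and 856 in those of 12, 999 and 877 in those of 24 and 844 and 1115 in those of 30 months. Its widespread partner Cox6a1 (ENSMUSG00000041697, chromosome 5, 115345642 to 115348981, GRCm38) was at 31.6 and 27.1 FPKM in the 3 month libraries, 35.7 and 30.0 in those of 12, 34.4 and 19.3 in those of 24 and 26.8 and 37.5 in those of 30 months. Cox6a2 thus made up 96.1% to 97.9% of the pair, and its level was 24.4 to 45.4 times that of Cox6a1.

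Cox8b (ENSMUSG00000025488, chromosome 7, 140898945 to 140900446, GRCm38) was at 1274 and 1173 FPKM in the 3 month libraries, 1513 and 1210.0 in those of 12, 1223 and 984 in those of 24 and 1225 and 1295 in those of 30 months. Cox8a (ENSMUSG00000035885, chromosome 19, 7215158 to 7217616, GRCm38), the widespread form, was at 50.7 and 49.4 FPKM in the 3 month libraries, 61.9 and 54.4 in those of 12, 53.8 and 48.0 in those of 24 and 47.2 and 66.6 in those of 30 months. The share of Cox8b was 95.1% to 96.3%. Cox7a1, the muscle form of COX7A (ENSMUSG00000074218, chromosome 7, 30184144 to 30186078, GRCm38), was at 488 and 438 FPKM in the 3 month libraries, 567 and 365 in those of 12, 408 and 446 in those of 24 and 355 and 467 in those of 30 months. Cox7a2 (ENSMUSG00000032330, chromosome 9, 79755361 to 79759878, GRCm38), the widespread form, was at 149 and 148 FPKM in the 3 month libraries, 158 and 120.2 in those of 12, 123 and 109 in those of 24 and 134 and 146 in those of 30 months. Here the muscle form held a smaller share, 72.6% to 80.3%, and was 2.65 to 4.08 times the level of its partner. In all 3 pairs the range of the muscle form lay above that of the widespread form in all 8 libraries.

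**Figure D2:**
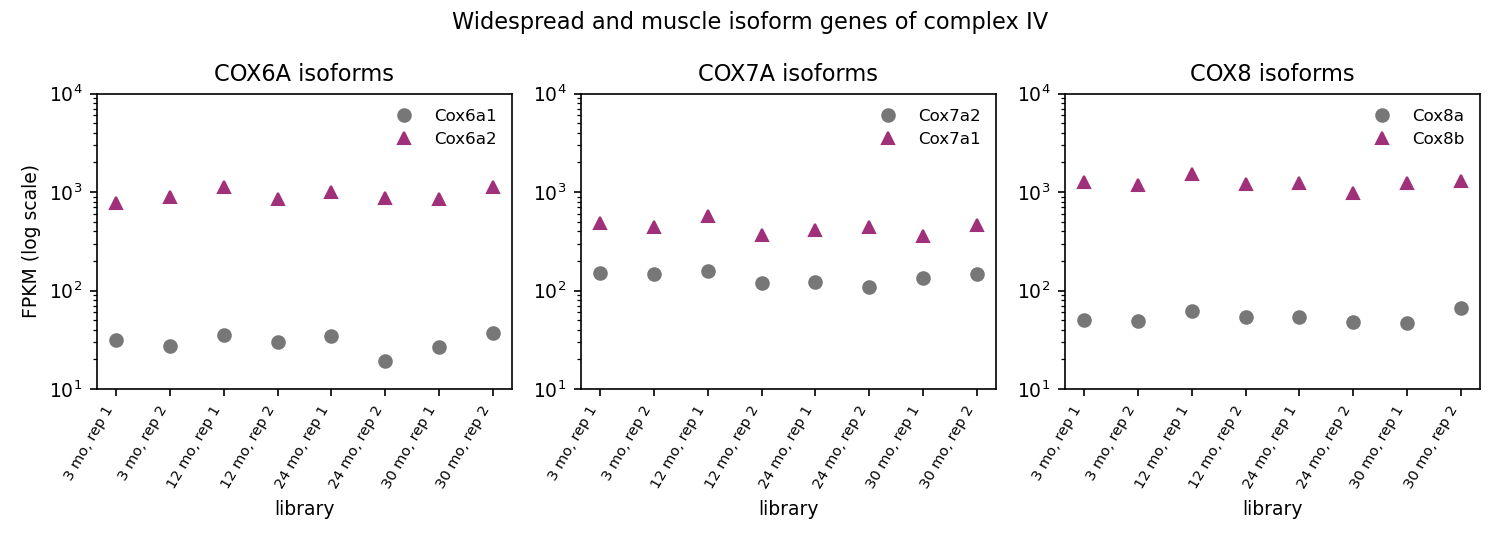
Level of the widespread isoform gene (grey circles) and the muscle isoform gene (purple triangles) of COX6A, COX7A and COX8 in each of the 8 libraries, in FPKM on a log axis. The gap is widest for COX6A and COX8 and narrowest for COX7A, where Cox7a1 is 2.65 to 4.08 times Cox7a2.

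The age means of the isoform shares lay close together. The share of Cox6a2 was 96.5% ± 0.675, 96.8% ± 0.208, 97.3% ± 0.833 and 96.8% ± 0.127 at 3, 12, 24 and 30 months (SD, n = 2). That of Cox7a1 was 75.7% ± 1.31, 76.7% ± 2.07, 78.6% ± 2.46 and 74.4% ± 2.5, and that of Cox8b was 96.1% ± 0.154, 95.9% ± 0.264, 95.6% ± 0.306 and 95.7% ± 0.837. No member of these pairs passed in a comparison of ages. With principal transcript lengths the mean shares were 96.2%, 75.4% and 95.8%, against 96.9%, 76.3% and 95.8% with deposited lengths.

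Other tissue isoforms were scarce. Cox4i2, the COX4 form known from lung, held 0.197% to 0.520% of its pair with Cox4i1 (391 and 384 FPKM in the 3 month libraries, 494 and 361 in those of 12, 366 and 299 in those of 24 and 325 and 408 in those of 30 months). Cox6b2, known from testis, held 0.0228% to 0.0863% of its pair with Cox6b1, at 0.0835 to 0.337 FPKM against 303 to 423. Cox7b2 held at most 0.0170% beside Cox7b, which was at 212 to 278 FPKM. Ndufa4l2, a hypoxia-responsive relative of Ndufa4, held 0.769% to 1.69% of its pair, at 2.35 to 3.77 FPKM. With principal transcript lengths the mean share moved from 1.21% to 0.412% for Ndufa4l2, from 0.329% to 0.172% for Cox4i2 and from 0.0454% to 0.0944% for Cox6b2. The c subunit of ATP synthase comes from 3 genes that encode the same mature protein behind different import peptides. Of their summed FPKM by deposited length, Atp5g3 held 35.2% to 49.7%, Atp5g1 31.1% to 38.0% and Atp5g2 18.1% to 31.5%. The lowest share of Atp5g3 and the highest of Atp5g2 were both in replicate 2 of 24 months. The order of the 3 genes turned with the length. Their mean levels were 119 (Atp5g3), 89.4 (Atp5g1) and 59.0 FPKM (Atp5g2) by deposited length, and 363, 737 and 224 FPKM by principal transcript length, where Atp5g1 was the highest.

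Promoters of the isoform genes differed in sequence. A RefSeq table for GRCm38.p6, with windows from 250 bases before to 50 after the start, held 66 of the 84 members and 17492 protein-coding genes in all. Cox6a2 and Uqcrq were not among the matched genes. The 120 bases before the start of 5 isoform genes are shown because the widespread and muscle forms differ in their CpG steps, printed in capitals. The widespread forms come first.
Cox6a1: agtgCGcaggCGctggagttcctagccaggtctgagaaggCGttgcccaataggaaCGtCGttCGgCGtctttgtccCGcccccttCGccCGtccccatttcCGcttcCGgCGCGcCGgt
Cox7a2: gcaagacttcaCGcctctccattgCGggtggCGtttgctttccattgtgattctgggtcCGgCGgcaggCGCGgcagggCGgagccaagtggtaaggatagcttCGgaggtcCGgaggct
Cox8a: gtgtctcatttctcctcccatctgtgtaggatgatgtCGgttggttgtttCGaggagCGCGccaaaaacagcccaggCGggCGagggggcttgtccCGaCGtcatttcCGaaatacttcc
Cox7a1: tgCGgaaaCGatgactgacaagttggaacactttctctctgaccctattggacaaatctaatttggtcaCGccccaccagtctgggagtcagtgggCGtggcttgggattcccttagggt
Cox8b: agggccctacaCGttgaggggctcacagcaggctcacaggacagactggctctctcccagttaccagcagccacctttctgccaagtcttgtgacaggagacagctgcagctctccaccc
They lie at chr5:115348959-115349078, minus strand (Cox6a1), chr9:79759854-79759973, minus strand (Cox7a2), chr19:7217617-7217736, minus strand (Cox8a), chr7:30184051-30184170, plus strand (Cox7a1) and chr7:140900447-140900566, minus strand (Cox8b). The windows hold 15, 10 and 9 CpG steps in Cox6a1, Cox7a2 and Cox8a, and 4 and 1 in Cox7a1 and Cox8b. Over the full 300 bases the ratio of observed to expected CpG was 1.08, 0.833 and 0.842 for the widespread forms and 0.333 and 0.115 for the muscle forms. The median was 0.795 over the 66 members and 0.576 over all 17492 genes, and 80.3% of members against 48.3% of genes exceeded 0.6.

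Motifs of factors known from nuclear respiratory genes were counted on both strands of the 300 base windows as exact letters, none of which contains another. The NRF1 letters GCGCATGCG occurred in 8 of 66 member promoters (12.1%) and 2.41% of all promoters. The ETS letters CCGGAAG, bound by GABPA, occurred in 15 (22.7%, against 11.9%), the YY1 letters AAGATGGCG in 6 (9.09%, against 1.94%) and the ERR letters TCAAGGTCA in 2 (3.03%, against 0.332%). Of the 6 YY1 matches 5 were in complex I genes. Clock elements were near the share in all promoters for the E-box CACGTG, in 5 (7.58%, against 7.90%), and rare for the D-box TTATGTAA, in 1 (1.52%, against 0.909%). The REV-ERB and ROR letters TAGGTCA were in 3 (4.55%, against 2.36%). The myogenic E-box CAGCTG was in 6 (9.09%, against 15.1%) and the MEF2 letters TATTTNTAG in 0 (against 1.55%). A match describes the letters and is not a bound site.

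Between 30 and 3 months no member changed by the test, and the differences were small. In edgeR's quasi-likelihood test with Benjamini-Hochberg adjustment over 19571 genes, 0 of 82 members passed an adjusted p of 0.05, where 0.148% of all genes did. DESeq2 called 0 members (0.616% of genes), limma-voom 0 (0.112%) and a fit with clock state as a term 0 (2.13%). DESeq2 was run without the low count filter, so its shares here and below are of 33615 genes. An unadjusted p under 0.05 was reached by 1 member (1.22%), against 8.52% of all genes. The median log2 fold change of the members was -0.07 against 0.01 for all genes, from -0.40 to 0.36, with a median standard error of 0.20. Of the 82, 61 were negative and 21 positive. Both 30 month libraries lay below both 3 month libraries for 20 members (24.4%, against 19.9% of all genes), and above them for 0 (against 21.3%).

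Ndufc1, an accessory subunit of complex I (ENSMUSG00000037152, chromosome 3, 51404677 to 51408988, GRCm38), had the lowest p. It was at 99.5 and 91.8 FPKM in the 3 month libraries, 96.8 and 72.8 in those of 12, 69.9 and 74.5 in those of 24 and 71.6 and 73.9 in those of 30 months. Replicate 2 of 12 months and all libraries of 24 and 30 months lay below both 3 month libraries, while replicate 1 of 12 months lay between them. Its log2 fold change at 30 months was -0.40 with a standard error of 0.17 (adjusted p = 0.582). At the other end, the scarce isoform gene Cox6b2 had 0.36 and Cox6a2 0.24, and Ndufb7, a membrane-arm subunit of complex I, had 0.15.

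By complex, the median log2 fold change at 30 months was -0.10 for complex I (6 positive, 31 negative), 0.03 for complex II (3 and 1), -0.06 for complex III (1 and 7), -0.07 for complex IV (6 and 10) and -0.08 for complex V (5 and 12). Sdhb, at 156 and 136 FPKM in the 3 month libraries, 182 and 118 in those of 12, 152 and 156 in those of 24 and 123 and 184 in those of 30 months, had 0.07, and Sdhd, a membrane anchor of complex II, -0.03. In complex III, Uqcrc1, a core subunit, had 0.0033 and Uqcrb, which binds ubiquinone, -0.16. In complex IV, Cox7a2l, known for its place in respiratory supercomplexes, had -0.16. In complex V, Atp5l, a membrane subunit, had 0.10, Atp5s -0.18, Atp5a1 -0.06 and Atp5b 0.00045. The adjusted p of each was at least 0.814.

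**Figure D3:**
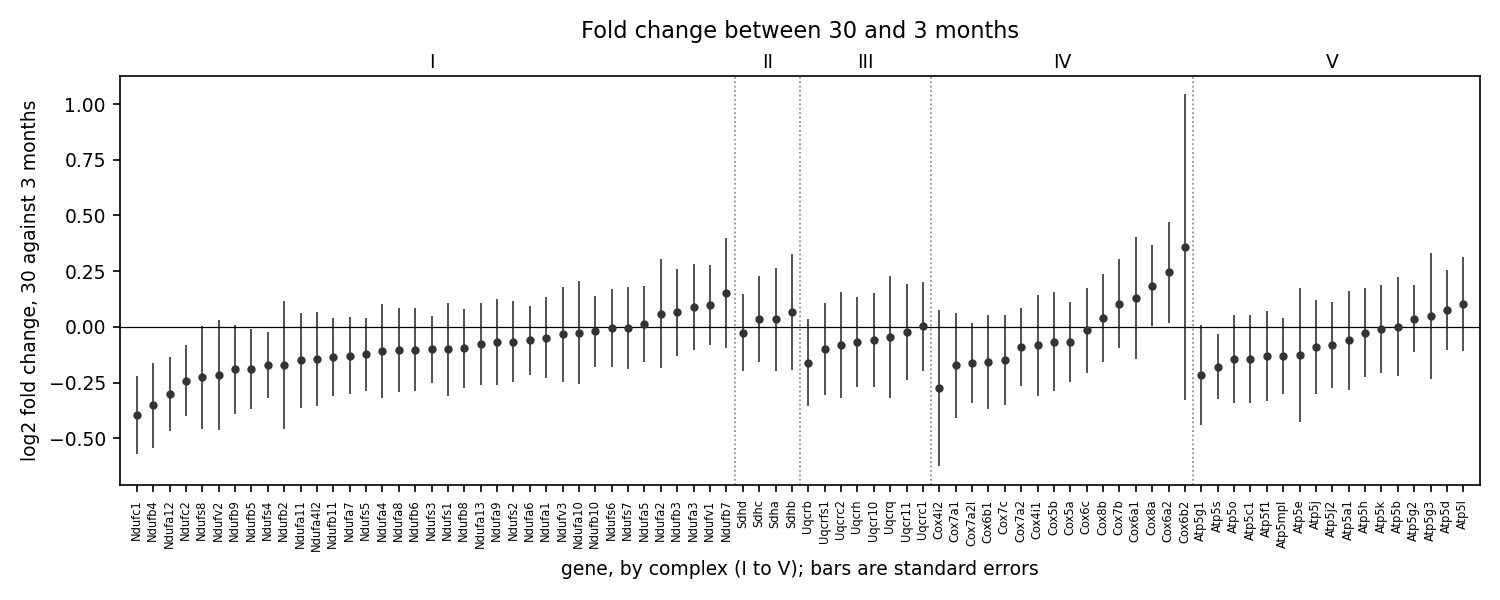
Log2 fold change between 30 and 3 months for each of the 82 tested genes, sorted within complexes I to V, with bars for standard errors. Most points lie just below 0 and most bars cross it, and the largest standard errors belong to the scarce isoform genes Cox6b2 and Cox4i2.

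The sign of this median rested on which 30 month library was used. It was -0.20 without replicate 2 of 30 months, with 3 members positive and 79 negative, and 0.05 without replicate 1, with 51 positive and 31 negative. With clock state as a term it was 0.03, with 48 positive and 34 negative. Age at 30 months and clock state cannot be fully told apart here, because no 3 month library had a high score.

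At 24 months the members also leaned lower than at 3 months, without a call. Of 82 members 0 passed, against 0.102% of all genes. DESeq2 also called 0 (0.390% of genes), as did limma-voom (0.0511%) and the fit with clock state as a term (0.363%). In edgeR's quasi-likelihood test 2 members, Ndufs4 and Ndufc1, had an unadjusted p under 0.05 (2.44%, against 7.56% of genes). The median log2 fold change was -0.12 (22 positive, 60 negative), or -0.04 with clock state as a term. That term takes 1 shared difference for all ages, while the members' median differed by 0.08 in the 24 month pair. In the pairs of 12 and 30 months it differed by -0.33 and -0.21. Without replicate 2 of 24 months, the high-score library, the median was -0.15 (15 positive, 67 negative). Without replicate 1 it was -0.07 (30 and 52). Groups did not overlap for 32 members on the lower side (39.0%, against 19.8% of genes) and 1 on the higher side (1.22%, against 19.6%). Ndufs4, an accessory complex I subunit near the electron input module, was at 76.1 and 69.5 FPKM in the 3 month libraries, 68.3 and 64.2 in those of 12, 57.4 and 55.5 in those of 24 and 62.0 and 67.5 in those of 30 months. Both 24 month libraries lay below the other 6, with a log2 fold change against 3 months of -0.36 with a standard error of 0.15 (adjusted p = 0.624). By complex the median was -0.15, 0.08, -0.14, -0.11 and -0.13 for complexes I to V. Complex II was the exception in sign in both comparisons, with 3 of 4 genes positive in each, and the 3 comparisons with 3 months share those 2 libraries.

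At 12 months the median against 3 months was -0.0019 (40 positive, 42 negative), with 0 called in edgeR's quasi-likelihood test (0.0409% of genes) and 0 at an unadjusted p under 0.05 (5.5% of genes). DESeq2 called 0 (0.196%), limma-voom 0 (0.0358%) and the fit with clock state as a term 0 (0.148%). With replicate 1 as the sole 12 month library the median was 0.14, and with replicate 2 it was -0.19. With clock state as a term it was 0.07, with 61 positive and 21 negative. Between 30 and 12 months the median was -0.08 (18 positive, 64 negative, 0 called, 0.00511% of genes), between 24 and 12 months -0.11 (20 positive, 62 negative, 0 called, 0% of genes) and between 30 and 24 months 0.03 (49 positive, 33 negative, 0 called, 0% of genes). These medians also changed sign with single libraries. Between 30 and 12 months the median was 0.11 (65 positive, 17 negative) when replicate 1 of 12 months was left out and 0.03 (52 and 30) when replicate 1 of 30 months was, against -0.21 and -0.19 when the other library of either age was left out. Between 24 and 12 months it was 0.05 (49 and 33) when replicate 1 of 12 months was left out and -0.24 when replicate 2 was. Between 30 and 24 months, leaving out replicate 1 or 2 of 30 months gave 0.14 (71 and 11) or -0.09 (24 and 58). Leaving out replicate 1 or 2 of 24 months gave -0.0080 (39 and 43) or 0.07 (64 and 18). In each of the 3 comparisons, 0 members had an unadjusted p under 0.05, against 5.21%, 3.07% and 3.10% of genes. DESeq2 called 0 members in the 3 (0.164%, 0.00595% and 0% of genes), as did limma-voom (0.00511%, 0% and 0%). Both libraries of 12 months lay above both of 3 months for 5 members (6.1%, against 20% of genes). They lay below them for 4 (4.88%, against 18.5%). Those of 30 months lay below both of 12 months for 7 (8.54%, against 16%) and above them for 0 (against 15.8%). Both libraries of 24 months lay below both of 12 months for 16 members (19.5%, against 15.0% of genes). They lay above them for 0 (against 12.8%). Those of 30 months lay above both of 24 months for 12 (14.6%, against 14.0%) and below them for 1 (1.22%, against 11.4%). The test across the 4 ages called 0 members (0.0613% of genes), with 0 at an unadjusted p under 0.05 (5.66%) and a lowest adjusted p of 0.924 by edgeR's quasi-likelihood F test. DESeq2 and limma-voom also called 0 there (0.672% and 0.0409%).

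At 12 and 30 months the members were lower, almost throughout, in the library of high clock score. There 78 of 82 members were below the low-score library at 12 months, with a median difference of -0.33 in log2 CPM, and 79 of 82 were lower at 30 months, with a median of -0.21. At 24 months the pattern was absent, with 32 of 82 lower and a median of 0.08. Lower in both the 12 and 30 month pairs were 76 members (92.7%), against 32.6% of all tested genes. The 6 others were Ndufa4l2, Ndufb4, Cox4i2, Cox6b2, Atp5g2 and Atp5s. For 46 members (56.1%, against 11.1% of genes) the direction was lower at 12 and 30 months and higher at 24 months, and 30 (36.6%, against 21.5%) were lower in all 3 pairs. The 2 libraries of 3 months, both of low score, had a median difference of -0.07 (replicate 2 minus 1), with 52 of 82 lower in replicate 2. These pairs are single libraries, so they carry no test of their own.

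**Figure D4:**
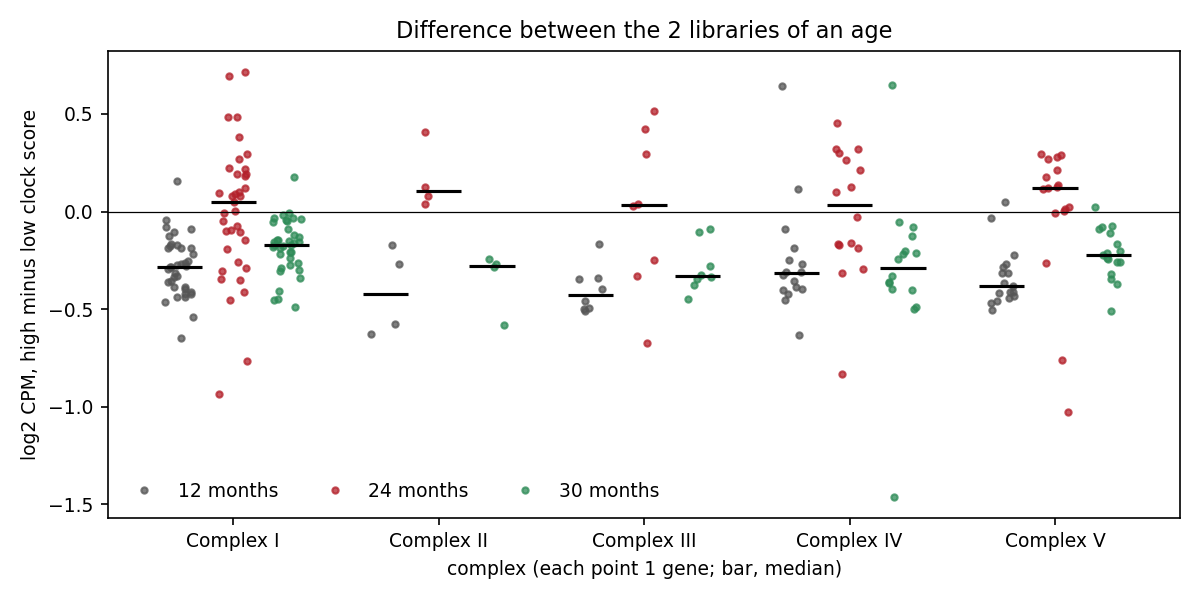
Difference in log2 CPM between the library of high and of low clock score at 12, 24 and 30 months for each of the 82 tested genes, by complex, with a bar at each median. The points of 12 and 30 months lie mostly below 0 in all 5 complexes, and those of 24 months spread on both sides, from -1.03 to 0.72.

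All 5 complexes shared the pattern. At 12 months the median differences were -0.28, -0.42, -0.43, -0.32 and -0.38 for complexes I to V, and at 30 months -0.17, -0.28, -0.33, -0.29 and -0.23. At 24 months they were 0.05, 0.10, 0.03, 0.04 and 0.12. Across members the differences at 12 and 30 months correlated at 0.40 (Pearson) and 0.55 (Spearman), those of 12 with 24 months at 0.01 and 0.03, and those of 24 with 30 months at 0.08 and 0.14. These are correlations across 82 genes of the same libraries, which are not independent replicates. Over all genes the Pearson r was 0.36, 0.26 and 0.30.

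Averaged over the 3 pairs in a fit with age and clock state, 4 of 82 members passed, all lower in the high-score libraries. That is 4.88%, near the 5.74% of all genes that passed in either direction (1123 of 19571), and 3.10% of genes passed as lower. An unadjusted p under 0.05 was reached by 22 members (26.8%, against 22.6% of genes). The median log2 fold change was -0.17 against -0.02 for all genes, with 72 negative and 10 positive. The 4 genes were Uqcrq, Atp5g3, Cox6a1 and Ndufb2, from complexes III, V, IV and I.

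Uqcrq, a small subunit of complex III (ENSMUSG00000044894, chromosome 11, 53427922 to 53430831, GRCm38), was at 165 and 154 FPKM in the 3 month libraries, 199 and 140.0 in those of 12, 142 and 88.8 in those of 24 and 131 and 179 in those of 30 months. The 3 high-score libraries were the lowest of the 8, and replicate 2 of 24 months was the lowest of all. Its log2 fold change was -0.55 with a standard error of 0.11 (adjusted p = 0.0198), with -0.51, -0.67 and -0.45 in the pairs of 12, 24 and 30 months.

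Atp5g3, a gene of the proton-carrying c subunit (ENSMUSG00000018770, chromosome 2, 73908447 to 73911326, GRCm38), was at 121 and 127 FPKM in the 3 month libraries, 145 and 109 in those of 12, 119 and 70.5 in those of 24 and 106 and 151 in those of 30 months. Here too the 3 high-score libraries lay below the other 5. Its log2 fold change was -0.57 with a standard error of 0.12 (adjusted p = 0.0204), and the pairs differed by -0.41, -0.76 and -0.51. Its promoter (chr2:73911327-73911446, minus strand) is shown because it holds 1 of the 2 ERR matches among members, on the reverse strand and in capitals.
Atp5g3: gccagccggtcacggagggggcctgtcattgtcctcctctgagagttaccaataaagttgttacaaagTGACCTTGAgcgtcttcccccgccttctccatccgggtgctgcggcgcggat
Atp5g3 is also 1 of the 5 members with an E-box match, which lies outside the bases shown. Of the other genes called with clock state, Cox6a1 held NRF1 and ETS letters. Ndufb2 held none of the motifs counted, and Uqcrq had no window. A link between these letters and the calls was not tested. The other ERR match was in Sdhd, whose log2 fold change was -0.14. The other genes of the c subunit had -0.37 (Atp5g1) and 0.03 (Atp5g2), neither with a call.

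Cox6a1, whose levels are given above, was lower, -0.53 with a standard error of 0.13 (adjusted p = 0.0335) on the log2 scale, with -0.25, -0.83 and -0.49 in the pairs, though replicate 2 of 3 months, a low-score library, lay below 1 of the high-score libraries. Its muscle partner Cox6a2 had -0.33 with a standard error of 0.13 (adjusted p = 0.145). Ndufb2, an accessory subunit of complex I (ENSMUSG00000002416, chromosome 6, 39592574 to 39603382, GRCm38), was at 25.7 and 23.6 FPKM in the 3 month libraries, 26.8 and 19.8 in those of 12, 20.9 and 10.9 in those of 24 and 20.3 and 23.5 in those of 30 months. Its high-score libraries lay below the other 5, with a difference of -0.53 with a standard error of 0.14 (adjusted p = 0.0453) on the log2 scale and -0.44, -0.94 and -0.21 in the pairs.

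Other members had values without a call. Sdhb had -0.40 with a standard error of 0.15 (adjusted p = 0.134), with high-score libraries at 118 and 123 FPKM at 12 and 30 months but 156 at 24 months. Ndufb4, an accessory subunit of complex I, had 0.17, Uqcrb 0.04, Atp5a1 -0.08 and Atp5b -0.07. Among isoform genes, Cox8b had -0.25, Cox8a -0.29, Cox7a1 -0.31, Cox7a2 -0.24, Cox4i1 -0.37, Cox4i2 0.39, Cox6b1 -0.18 and Ndufa4 0.04. The widespread and muscle forms thus had the same sign in the pairs of COX6A, COX7A and COX8. Signs were opposite for Cox4i1 and Cox4i2, the form known from lung, and for Ndufa4 and Ndufa4l2 (-0.06). Cox4i2 rested on 34 to 76 counts per library. Its standard error was 0.25 (adjusted p = 0.39 by edgeR's quasi-likelihood test).

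The calls depended on single libraries. Without replicate 1 of 12 months 0 members passed in edgeR's quasi-likelihood test (0.844% of genes), and without replicate 2 also 0 (1.21%). In both fits far fewer of all genes passed than the 5.74% of the full fit. The members' median was then -0.08 and -0.09, or -0.06 relative to all genes. Without either library of 30 months 1 passed, Ndufb2 (2.15% and 2.22% of genes), and the median was -0.13. Without replicate 2 of 24 months 8 passed (5.76% of genes), with a median of -0.28. They were Uqcrq, Atp5g3, Atp5j, Cox7a1, Ndufa11, Ndufb7, Ndufs8 and Sdhb, so that Cox6a1 and Ndufb2 were no longer among them. Without replicate 1 of 24 months 5 passed (5.29% of genes), with a median of -0.27, and without either library of 3 months 3 (4.86% and 4.70%). DESeq2 called 11 of 84 members (4.14% of 33615 genes), and a fit with no filter 8 of 84 (7.24% of 33615). A filter of 1 CPM in 2 libraries called 5 of 81 (7.63% of 14150). Over the 19571 genes of the main fit, limma-voom called 3 of 82 (4.93%) and RLE scaling 4 of 82 (5.88%). With library totals in place of TMM 36 passed (10.6% of genes), in a scaling that moved the median of all genes to -0.22, and the members' median to -0.37. Relative to all genes the members' median was -0.16 under both scalings.

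Replicate 2 of 24 months stood apart in the balance among members. It was the lowest of the 8 libraries for 25 of 82 members (against 20.6% of all genes) and the highest for 12 (against 19.7%). Its deviations from the members' means of the other libraries had an SD of 0.33 in log2 CPM, against 0.10 to 0.19 in the rest. Over all genes above a log2 CPM of 4 it also had the widest spread, 0.37 against 0.14 to 0.28. Atp5e, the small epsilon subunit of ATP synthase (ENSMUSG00000016252, chromosome 2, 174461072 to 174464105, GRCm38), was at 249 and 227 FPKM in the 3 month libraries, 266 and 207 in those of 12, 208 and 102 in those of 24 and 212 and 224 in those of 30 months. The difference of this library from replicate 1 of its age was -1.03 in log2 CPM. Its deviation was -1.15, and Ndufb2, Ndufa2, Atp5g3, Uqcrq and Cox6a1 were the next lowest, with deviations of -1.06 to -0.71. Ndufv2, a core subunit of the NADH-binding module, was at 129 and 115 FPKM in the 3 month libraries, 127 and 97.2 in those of 12, 97.0 and 159 in those of 24 and 101 and 110.0 in those of 30 months. Ndufa10, an accessory subunit, was at 59.4 and 57.3 FPKM in the 3 month libraries, 65.4 and 53.9 in those of 12, 52.8 and 85.5 in those of 24 and 53.7 and 61.0 in those of 30 months. Both were highest in that library, as was the core subunit gene Uqcrc2 at 148 FPKM. Atp5e, Ndufv2, Ndufa10, Ndufa2 and Uqcrc2 here, and Ndufs4 above, were chosen after their values were seen.

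**Figure D5:**
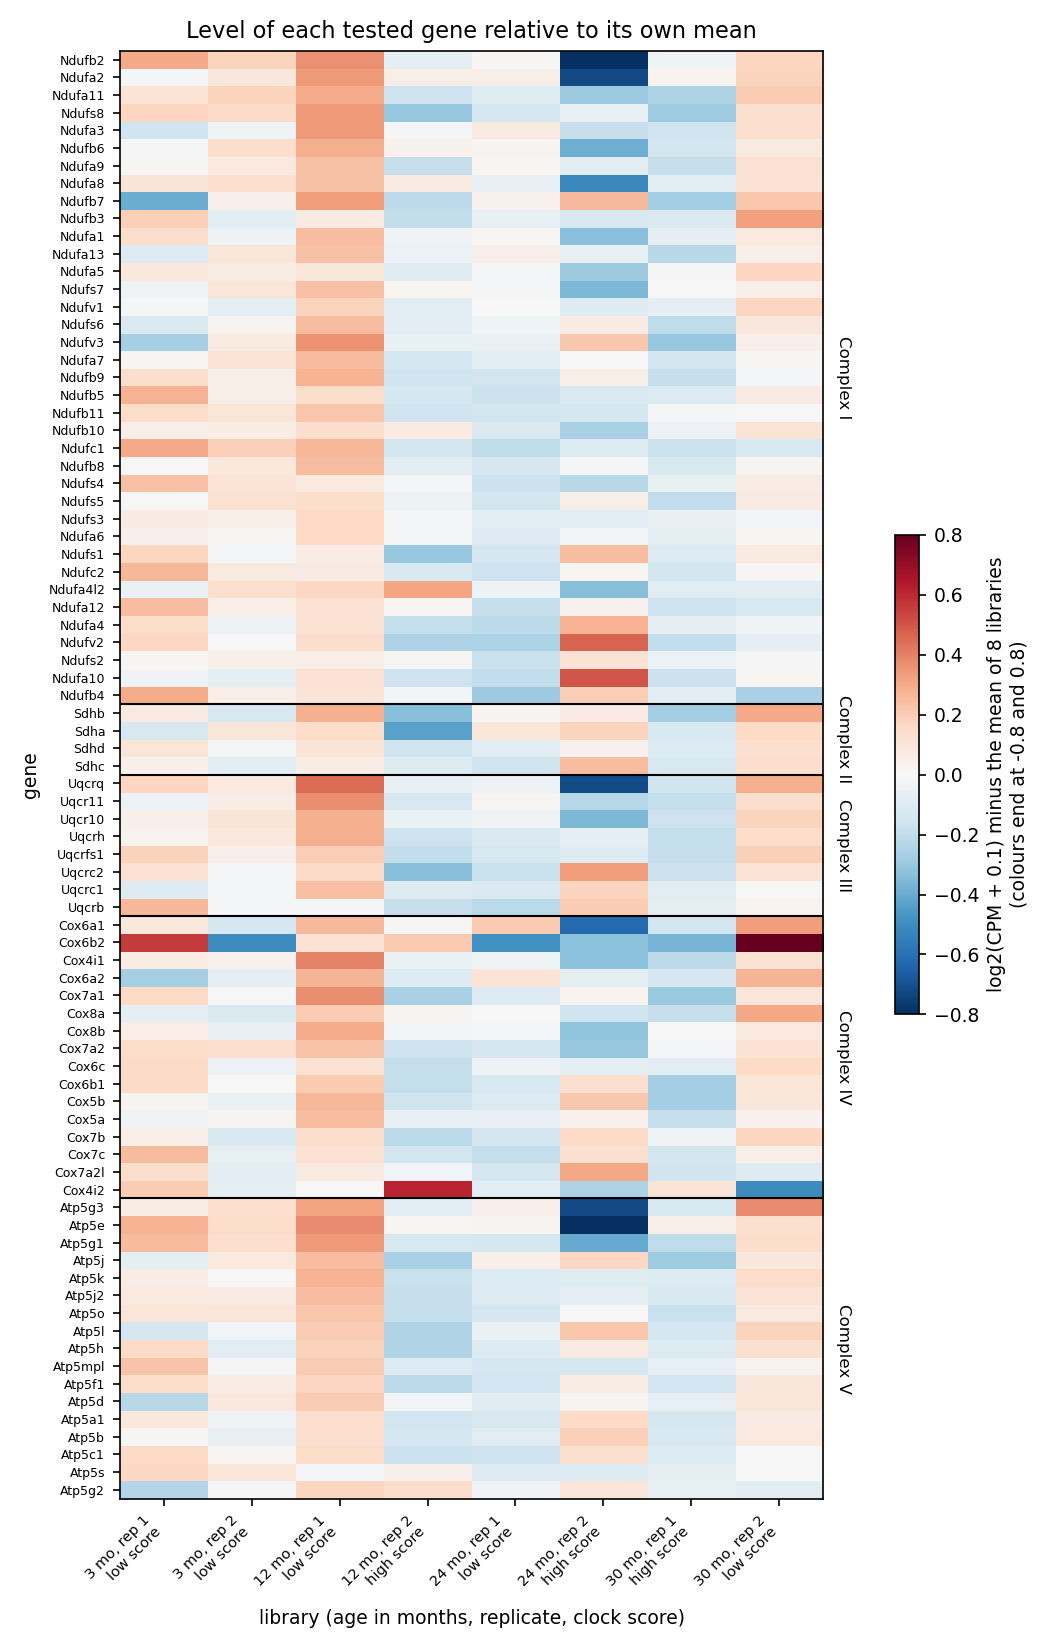
Log2(CPM + 0.1) of each tested member minus its mean over the 8 libraries, with genes in rows by complex and libraries in columns by age, replicate and clock score. Replicate 1 of 12 months is above the mean for most genes and is the highest of the 8 for 47 of 82 (against 10.1% of all tested genes). Replicate 2 of 24 months holds both the deepest blue and some of the deepest red cells.

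Other markers moved with clock state, and their part in the members' differences was not tested. The slow fibre list was lower in the high-score library for 8 of 8 genes at 12 months, 7 of 8 at 24 months and 8 of 8 at 30 months, with medians of -0.56, -0.46 and -0.75. Its sum was 1005 to 1725 CPM in the high-score libraries and 538 to 2921 CPM in the low-score libraries. Myl3 was called in the fit (-0.67, adjusted p = 0.0349). Of 9 fast fibre genes 7 were positive in it, with a median of 0.39 and 0 called. Skeletal muscle markers summed to 126600 to 161300 CPM in the high-score libraries against 75480 to 133400 CPM, and of 6 such genes Acta1 was called higher (0.84, adjusted p = 0.043). Kidney markers summed to 0.661 to 0.724 CPM in the high-score libraries and to 3.68 to 51.0 CPM in the low-score ones. All 9 were lower in each pair, and 2 were called lower by edgeR's quasi-likelihood test. These were Slc12a3 (-3.49, adjusted p = 0.0158) and Slc34a1 (-8.16, adjusted p = 0.0208), the latter at 0 in all 3 high-score libraries. Of 4 macrophage markers 3 were called lower, and their sum was 45.1 to 64.6 against 66.1 to 105.7 CPM. Heart markers summed to 10.9 to 15.5 CPM against 10.2 to 28.4 CPM. All 4 heart genes tested were lower in each pair, and Myl4 was called lower in the fit (-0.71, adjusted p = 0.0116). Nppb and Myl7 were at or near 0 in all 8 libraries. Ucp1, the defining gene of brown fat, was at 0 in all 8.

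Marker lists differed with age too, and their part in the members' lean was not tested. Of the slow fibre list, all 8 genes were positive at 30 against 3 months, with a median of 1.96 and a call for Myh7 (2.77, adjusted p = 0.028), while the members' median was -0.07. Kidney markers set the 3 month libraries apart, with sums of 51.0 and 16.6 CPM against at most 5.55 CPM at later ages. Their median log2 fold change against 3 months was -3.87 at 12, -3.58 at 24 and -4.06 at 30 months, and the lowest adjusted p by edgeR's quasi-likelihood test was 0.132. These lists had been chosen with such results known.

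Subunits encoded in the mitochondrial genome were lower in the high-score library for 12 of 12 tested genes at 12 months (median -0.53), 8 of 12 at 24 months (-0.62) and 7 of 12 at 30 months (-0.11). In the fit 2 were called lower, mt-Nd6 (-0.82, adjusted p = 0.0107) and mt-Nd5 (-0.74, adjusted p = 0.0413), both complex I subunit genes, which overlap at their ends on opposite strands, so counts without strand could share reads. With age, mt-Nd3 was called higher than at 3 months at 12 (4.64), 24 (4.85) and 30 months (4.90), and had 0.26 without a call between 30 and 12 months. mt-Nd4l was called at 30 months (4.06). Both have near-identical nuclear copies, so their levels are uncertain. Levels on this list were very uneven. mt-Nd3 was at 0.604 and 0.407 CPM in the 3 month libraries, and mt-Nd4l at 0.0647 to 2.28 CPM in all 8. mt-Co2 was at 0.842 to 1.39 CPM, mt-Co3 at 2.35 to 3.98 CPM and mt-Atp6 at 0.352 to 0.592 CPM. By contrast mt-Co1 was at 16570 to 26610 CPM. The counts and medians above weigh all tested genes alike, these scarce ones included.

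Assembly factors, which build the complexes without being part of them, had 1 call with clock state. In the fit 0 of 17 complex I factors, 0 of 4 of complex II, 0 of 6 of complex III, 1 of 24 of complex IV and 0 of 4 of complex V were called with clock state. The call was Cox15, which makes the heme a of complex IV, higher by 0.67 (adjusted p = 0.00817), and Ecsit, a complex I factor, had 0.39 (adjusted p = 0.0523). At 12 and 30 months 10 of 17 complex I factors and 17 of 24 complex IV factors were lower in the high-score library, at each age. Among subunit genes 36 of 37 of complex I were lower at each age, and 14 and 15 of 16 of complex IV. The difference between factors and subunits was not tested. Between 30 and 3 months none of the 5 lists had a call in edgeR's quasi-likelihood test. Ndufaf4, an early complex I factor, had the lowest adjusted p (-0.55, adjusted p = 0.292), and 3 of 17 complex I factors were positive.

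Genes that feed or regulate the chain were mixed. Of 10 electron carriers and shuttles, Etfb (-0.60, adjusted p = 0.00877) and Etfa (-0.53, adjusted p = 0.0181), the 2 subunits of the flavoprotein that collects electrons from fatty acid oxidation, were called lower in the high-score libraries. Gpd2, the mitochondrial glycerol phosphate dehydrogenase, was called higher (0.52, adjusted p = 0.0411). Of 13 coenzyme Q genes Coq10b was called higher (0.67, adjusted p = 0.0218). Of 17 regulators, Polrmt, the mitochondrial RNA polymerase, was called higher (0.66, adjusted p = 0.00889) and Esrrb, an estrogen-related receptor, lower (-0.71, adjusted p = 0.0231). Ppargc1b, a coactivator of respiratory genes, had the lowest p of the regulators at 30 against 3 months (0.83, adjusted p = 0.207). None of these 3 lists had a call there. Of 59 cytosolic ribosomal protein genes, another large set of stable and abundant transcripts, 47 were lower at 12 months and 44 at 30 months, with medians of -0.05 in both pairs, and Rpl3 alone was called (-0.42, adjusted p = 0.0466).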

How the data were processed

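RNA of frozen gastrocnemius was extracted with Trizol and made into libraries using NEBNext Ultra reagents, per the labels' protocols. The authors deposited raw counts per Ensembl gene. The submitters' processing notes name Subread 1.5.2, featureCounts, STAR 2.5.2b and Trimmomatic 0.36, without their roles. How strand and multiply matching reads were counted is not stated there or in the labels. Therefore members with near-identical pseudogenes or overlapping neighbours have uncertain counts. GENCODE M21 on GRCm38 named 49056 of 49315 genes, and for 65 of 84 members its start and end matched the files.

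Counts were analysed with edgeR 4.0.16 in R 4.3.3 (filterByExpr, TMM, robust quasi-likelihood fit of 4 ages over 8 libraries, 4 residual degrees of freedom). Clock state was tested in a fit with age (3 residual degrees of freedom), where the 3 month libraries inform only the spread. Each standard error is the fold change on the log2 scale over the root of its F statistic. Log2 CPM used a prior count of 2. Alternatives were RLE size factors, library totals, no filter, a filter of 1 CPM in 2 libraries, DESeq2 1.42.0, limma-voom (limma 3.58.1), only the libraries compared, a replicate block, clock state as a term, and each library left out. Added after seeing the data was the principal transcript length. The procedure was tested on simulated data.

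Named genes were those called, both partners of isoform pairs, the 2 of highest FPKM in each complex, and in each complex the lowest p in each direction for 30 against 3 months and for clock state. From other lists those called and the 2 of lowest p could be named. Members, lists, clock genes and this rule were chosen with earlier results of these data known.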

Additional observations from a re-analysis of the deposited data

Results flagged for a closer look

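The difference of the members between the high-score and the low-score library had opposite signs at different ages. Its median in log2 CPM was -0.327 for the 12 month pair, 0.0796 for the 24 month pair and -0.214 for the 30 month pair. Each age has 1 library of each kind, so the difference between ages was not tested. Lower members numbered 78, 32 and 79 of 82 in that order. The spread among members was widest at 24 months, with an SD of 0.34 against 0.19 and 0.22, and replicate 2 of that age stood apart among members and among all genes. Its TMM factor was the lowest of the 8, 0.868, and its total the highest, 59245029 counts. The part of these values in the difference was not tested.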

How the results depend on the processing

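No member was called in any comparison of ages under any alternative run, the fits that leave out 1 library included. The number called with clock state was 36 of 82 with library totals, where 10.6% of all genes were called. It was 8 of 84 with no low count filter (7.24% of genes) and 11 of 84 with DESeq2 (4.14%). With a replicate block it was 0, where 2.2% of all genes were called, and it also moved in the fits that leave out 1 library. The block changed no other call of members. Same-numbered libraries did not vary together (correlations of replicate differences -0.36 to 0.26), so the numbers were not treated as pairs. Where 1 library was left out, the spread of the remaining one was taken from the other ages. The median log2 fold change with clock state was -0.374 with library totals, where the median of all genes was -0.216. That of 24 against 3 months was -0.229 with library totals, -0.0417 with clock state as a term, and -0.154 to -0.0734 in the fits that leave out 1 library. That of 30 against 24 months was 0.168 with library totals, where the median of all genes was 0.127. Library totals also moved the split of higher against lower members, to 8 and 74 at 24 against 3 months, 75 and 7 at 30 against 24 months, 31 and 51 both at 30 and at 12 against 3 months, 38 and 44 at 30 against 12 months, 9 and 73 at 24 against 12 months, and 1 and 81 with clock state. Of the fold changes of named genes under the alternatives, 969 kept direction and side of the threshold or stayed within the spread, 71 moved, 20 gained a call and 26 lost one. With 2 libraries per age, a median standard error of 0.20 for members limits what a comparison of ages can show.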
